A study of Homo sapiens with 8 samples.

Results

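The TGF-beta, BMP and ID genes described here are 10 genes of 1 signalling system. They are the ligand BMP4, the receptors TGFBR1, TGFBR2 and BMPR1A, the intracellular SMAD2, SMAD4 and SMAD7, and the target genes ID1, ID2 and ID3. They were taken by name, through every probe set that the platform annotation assigns to exactly 1 of these symbols. This gave 22 probe sets for 9 of the 10 genes, of 54675 probe sets and 19775 genes on the array in all. BMPR1A, a BMP receptor, had no such probe set in the annotation used and was not analysed here.

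Levels were measured on Affymetrix HG-U133 Plus 2.0 arrays in 2 colon cancer lines, each sampled in hypoxia and in normoxia. The 4 groups, of 2 arrays each, were DKS-5 (labelled mutant) after 12 h at 1% O2, DKS-5 at 21% O2, DKO-3 (labelled knockout, or wild-type) after 12 h at 1% O2, and DKO-3 at 21% O2. Each genotype label stands for 1 line only, so genotype and any other difference between the lines cannot be told apart. The labels do not state whether 2 arrays of a group go back to separate cultures. Every p-value here therefore reflects the variation among these arrays alone, which could be technical.

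In this pathway a secreted ligand of the TGF-beta or BMP class brings together type I and type II receptor kinases, which phosphorylate receptor SMADs. These join SMAD4, enter the nucleus and act on target genes, while SMAD7 and other inhibitors limit the signal. The ID genes are textbook targets of BMP signalling. Their products are helix-loop-helix proteins with no DNA-binding region, which hold bHLH transcription factors away from DNA and are best known for keeping cells undifferentiated. In the colon the BMP arm is known for restraining stem cells in the crypt, and the TGF-beta arm is frequently lost in colon cancer.

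Because the arrays contrast hypoxia with normoxia, the promoters of the ID genes and of BMP4 were read for the core of the hypoxia response element, to which hypoxia-inducible factors bind. The sequences are from RefSeq (GRCh38.p14) and run 5′ to 3′ on the strand of the gene, from 250 bases before to 50 after a start of transcription. Capitals mark ACGTG or GCGTG on either strand. The windows are chr20:31605039-31605338 (plus strand) for ID1, chr2:8681806-8682105 (plus strand) for ID2 and chr1:23559452-23559751 (minus strand) for ID3. BMP4 has several starts, of which those with a match are shown, at chr14:53954439-53954738 and chr14:53953346-53953645 (both minus strand).
ID1: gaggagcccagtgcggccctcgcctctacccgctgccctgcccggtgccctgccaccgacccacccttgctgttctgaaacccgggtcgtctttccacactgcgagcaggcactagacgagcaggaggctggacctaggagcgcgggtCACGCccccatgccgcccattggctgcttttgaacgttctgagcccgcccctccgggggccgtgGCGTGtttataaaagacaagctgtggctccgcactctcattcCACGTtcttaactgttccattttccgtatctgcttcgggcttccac
ID2: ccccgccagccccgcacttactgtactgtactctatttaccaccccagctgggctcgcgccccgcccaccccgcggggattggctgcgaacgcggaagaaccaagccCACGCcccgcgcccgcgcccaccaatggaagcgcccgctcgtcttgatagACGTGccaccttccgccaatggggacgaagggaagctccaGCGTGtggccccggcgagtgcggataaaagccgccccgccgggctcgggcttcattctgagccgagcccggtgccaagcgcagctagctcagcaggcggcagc
ID3: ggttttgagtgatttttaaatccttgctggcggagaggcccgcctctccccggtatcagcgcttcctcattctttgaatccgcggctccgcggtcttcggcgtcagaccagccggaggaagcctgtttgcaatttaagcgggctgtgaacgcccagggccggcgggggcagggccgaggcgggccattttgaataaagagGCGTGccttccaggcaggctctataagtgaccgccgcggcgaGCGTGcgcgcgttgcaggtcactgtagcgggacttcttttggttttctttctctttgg
BMP4 window 2: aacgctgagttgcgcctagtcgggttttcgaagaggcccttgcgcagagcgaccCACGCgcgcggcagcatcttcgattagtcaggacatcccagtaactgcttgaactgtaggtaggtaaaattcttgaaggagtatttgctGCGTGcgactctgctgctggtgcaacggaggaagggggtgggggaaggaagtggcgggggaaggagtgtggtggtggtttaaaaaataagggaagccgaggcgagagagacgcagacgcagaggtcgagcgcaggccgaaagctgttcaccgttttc
BMP4 window 3: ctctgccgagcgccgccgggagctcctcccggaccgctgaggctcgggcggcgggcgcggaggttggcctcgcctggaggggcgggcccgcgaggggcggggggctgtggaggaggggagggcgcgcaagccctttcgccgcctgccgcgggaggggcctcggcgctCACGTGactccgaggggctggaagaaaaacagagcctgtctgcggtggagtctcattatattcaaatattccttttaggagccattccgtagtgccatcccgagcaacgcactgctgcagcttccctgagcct
The ID1 and ID2 windows each held 1 ACGTG and 2 GCGTG. The ID3 window held 2 GCGTG and no ACGTG. BMP4 window 2 held 2 GCGTG, and in window 3 ACGTG read on both strands overlapped in the single run marked. Of the 22 windows of the 9 measured genes, 15 held either core, beside 48.4% of the 35116 windows of all genes. Some windows of the same gene overlap, as for TGFBR1, so they are not separate counts. The SMAD binding core CAGAC stood in the ID3 window and in both BMP4 windows shown, but not in those of ID1 and ID2. It stood in 45.3% of all windows. A match describes the letters in the window and no more.

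Of 10 colon epithelium markers listed, 8 (EPCAM, CDH1, KRT8, KRT18, KRT19, KRT20, CDX2 and VIL1) were above the floor for testing. CDX1 and CEACAM5 were below it. Signals summed over all 10 were 19231 to 21560 in DKS-5 hypoxia and 16712 to 17935 in DKS-5 normoxia. In DKO-3 the sums were 18912 to 20368 in hypoxia and 17431 to 19259 in normoxia. Of the fibroblast, endothelial and blood markers, COL1A1 and HBB passed. The ratio of the 3′ to the 5′ ACTB control probe set, which rises as RNA or its copies shorten, was 54.8 and 25.6 in DKS-5 hypoxia, 55.1 and 34.3 in DKS-5 normoxia, 11.5 or less on both arrays of DKO-3 hypoxia, and 49.0 and 14.9 in DKO-3 normoxia. It was therefore lowest in DKO-3 hypoxia, and its part in the differences below was examined only by adding it to the model.

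All 22 probe sets of the 9 genes lay above the floor, a scaled signal of 13.8. Signals here are the deposited intensities scaled to 1 trimmed mean per array, and differences are on the log2(signal + 16) scale with their standard errors. Of the genes, 5 had several probe sets. Each gene is represented by its brightest, and the others are given where they differ. Signals of different probe sets are not compared with each other.

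**Figure D1:**
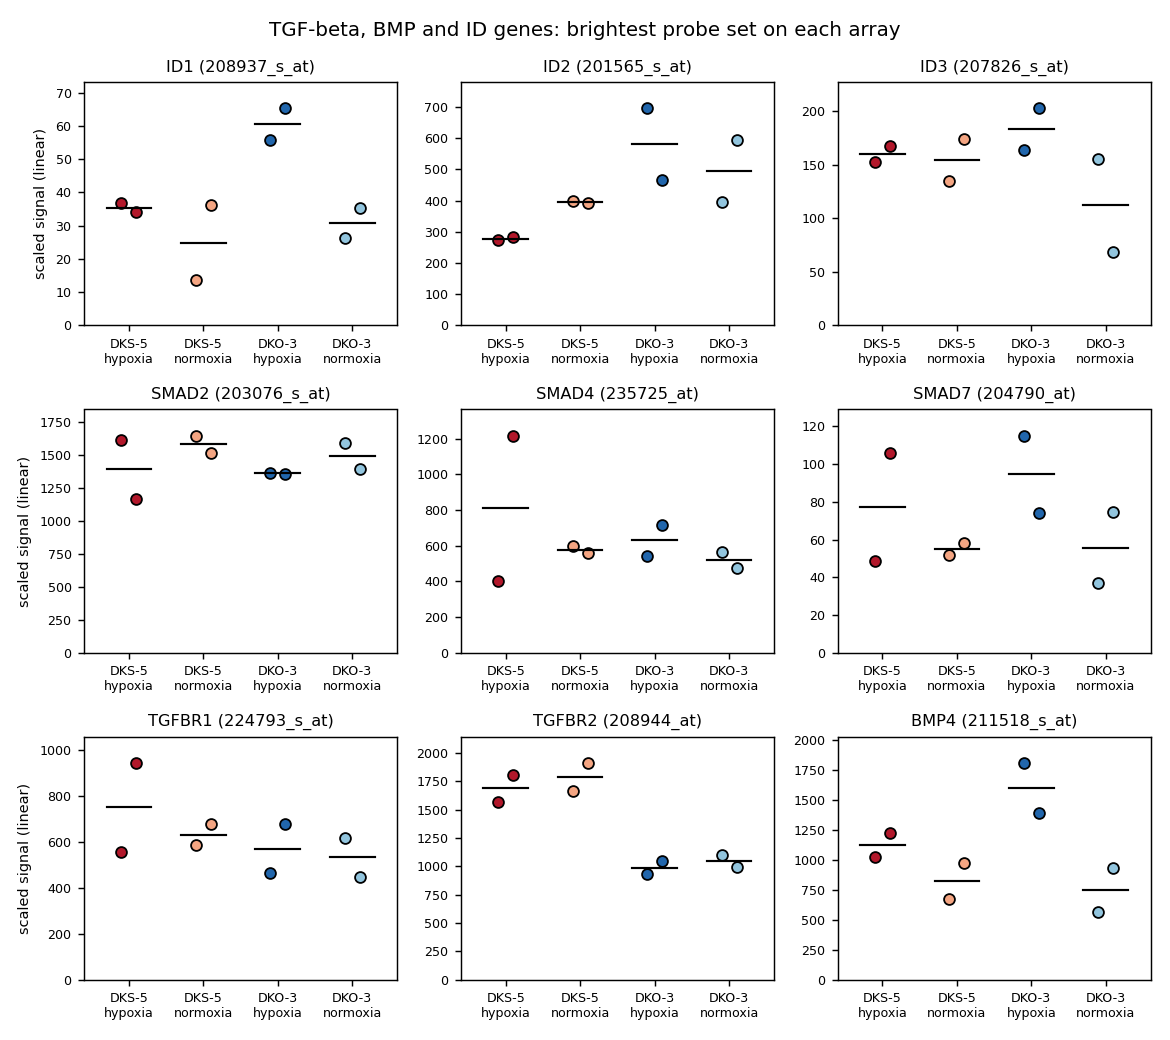
Scaled signal (linear axis) of the brightest probe set of each of the 9 genes on every array; points are arrays, lines are means of 2. The 2 DKS-5 groups of TGFBR2 lie above both DKO-3 groups, and both hypoxia groups of BMP4 lie above both normoxia groups.

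Hypoxia was compared with normoxia in each line and over both. BMP4 rose in hypoxia by 1.72-fold as the mean of both lines, the single gene of the 9 to pass, and ID1 and ID3 stood higher in DKO-3 hypoxia without passing after adjustment. ID2 stood lower in hypoxia in DKS-5 without passing. The receptors and SMAD2, SMAD4 and SMAD7 had no called change.

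BMP4, a secreted ligand of the BMP class, had signals of 1022 and 1221 in DKS-5 hypoxia, against 673 and 971 in DKS-5 normoxia. In DKO-3 it had 1807 and 1390.0 in hypoxia, against 561 and 932 in normoxia. All 4 hypoxia arrays were above all 4 normoxia arrays, the closest pair being a DKS-5 hypoxia and a DKS-5 normoxia array. The means were 1121 ± 141 in DKS-5 hypoxia and 822 ± 211 in DKS-5 normoxia, and 1599 ± 295 in DKO-3 hypoxia and 746 ± 262 in DKO-3 normoxia (SD, n = 2 each). DKO-3 hypoxia stood highest, DKS-5 hypoxia next, and the 2 normoxia groups overlapped. The mean hypoxia effect of both lines was 0.79 ± 0.18 (limma, adjusted p = 0.0489). In that comparison 1.19% of the 12735 genes tested passed an adjusted p of 0.05, against 1 of the 9. The groups of 4 arrays did not overlap for 6.23% of all genes, against 1 of the 9.

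Within single lines BMP4 did not pass. In DKO-3 its difference was 1.11 ± 0.26, or 2.17-fold, with limma's adjusted p = 0.109. It passed there with no array scaling (1.31, adjusted p = 0.0289), a setting in which the median of all genes was 0.20. It also passed when the model held the DKO-3 arrays alone (adjusted p = 0.0377). In DKS-5 it was 0.46 ± 0.26 (adjusted p = 0.790). The difference between these responses, DKS-5 minus DKO-3, was -0.66 ± 0.36 with a 95% interval of -1.43 to 0.12 and did not pass (adjusted p = 1.00). The BMP4 call over both lines was close to the threshold and was lost in 11 of 18 alternatives. Among these were no array scaling (0.75, adjusted p = 0.0769), a pseudocount of 1 (0.0597) and no filter (0.206). The mean of all probe sets (0.0860) and no variance trend (0.0999) lost it too. With the ACTB ratio in the model the effect was 0.49 (adjusted p = 0.515), and the call was also lost without DKS-5 hypoxia replicate 2 (adjusted p = 0.120), DKS-5 normoxia replicate 1 (0.284), DKO-3 hypoxia replicate 1 (0.269) or replicate 2 (0.0830), or DKO-3 normoxia replicate 1 (0.239).

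ID1, an inhibitor of bHLH factors, had signals of 36.7 and 34.2 in DKS-5 hypoxia, against 13.6 and 36.2 in DKS-5 normoxia. In DKO-3 it had 55.7 and 65.2 in hypoxia, against 26.1 and 35.2 in normoxia. The DKO-3 hypoxia arrays were the 2 highest of the 8, and the other 3 groups overlapped one another. A DKS-5 normoxia array lay just below the floor for testing. The ID1 difference was 0.72 ± 0.28 in DKO-3 (unadjusted p = 0.0225, limma's adjusted p = 0.404). In DKS-5 it was 0.39 ± 0.28 (adjusted p = 0.854), and the mean of both lines was 0.55 ± 0.20 (adjusted p = 0.221). Without that array (replicate 1 of DKS-5 normoxia) these were -0.02 and 0.35.

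ID3, a close relative of ID1, had signals of 153 and 168 in DKS-5 hypoxia, against 135 and 174 in DKS-5 normoxia. On the DKO-3 arrays it stood at 164 and 203 in hypoxia, against 155 and 69.0 in normoxia. A single DKO-3 normoxia array was low, and the other 7 lay within 135 to 203. The difference in DKO-3 was 0.72 ± 0.30 (unadjusted p = 0.0325, limma's adjusted p = 0.431), and in DKS-5 0.06 ± 0.30. ID3 thus differed in DKO-3 by as much as ID1, but its difference rested on that array.

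ID2, the third of these inhibitors, had signals of 274 and 284 in DKS-5 hypoxia, against 400.2 and 393 in DKS-5 normoxia. For DKO-3 the signals were 696 and 467 in hypoxia, against 396 and 594 in normoxia. Both DKS-5 hypoxia arrays were below every other array, while the DKO-3 groups overlapped and varied more. The difference in DKS-5 was -0.49 ± 0.26 (limma's adjusted p = 0.772), and in DKO-3 0.23 ± 0.26 (adjusted p = 0.803). The responses differed by -0.71 ± 0.36 (95% interval -1.48 to 0.06), which did not pass. Its second probe set, 201566_x_at, had 304 and 359.7 in DKS-5 hypoxia, against 323 and 425 in DKS-5 normoxia, and these groups overlapped.

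SMAD7, the inhibitory SMAD that TGF-beta itself induces, had signals of 48.8 and 106 in DKS-5 hypoxia, against 51.9 and 58.3 in DKS-5 normoxia. DKO-3 arrays showed 115 and 74.2 in hypoxia, against 36.8 and 74.3 in normoxia. The groups overlapped in both lines. The mean of both lines was 0.49 ± 0.24 (limma's adjusted p = 0.359).

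SMAD4, the common partner of the receptor SMADs, had signals of 402 and 1217 in DKS-5 hypoxia, against 595 and 561 in DKS-5 normoxia. In DKO-3 its signals were 543 and 717 in hypoxia, against 562 and 475 in normoxia. The 2 DKS-5 hypoxia arrays were the lowest and the highest of the 8. Replicate 2 was also above replicate 1 of that group on probe sets 202527_s_at (123 and 166 for replicates 1 and 2) and 202526_at (77.4 and 137), but not on 1565702_at (85.9 and 85.4). The difference in DKS-5 was 0.27 ± 0.36 (limma's adjusted p = 0.931), and without DKS-5 hypoxia replicate 1 it was 1.05 and passed (adjusted p = 0.0414). In DKO-3 it was 0.27 ± 0.36.

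SMAD2, which carries the TGF-beta signal, had signals of 1614 and 1169 in DKS-5 hypoxia, against 1647 and 1513 in DKS-5 normoxia. The DKO-3 arrays gave 1363 and 1357 in hypoxia, against 1589 and 1394 in normoxia. The groups overlapped in DKS-5, and in DKO-3 hypoxia lay just below normoxia. The differences were -0.20 ± 0.19 in DKS-5 and -0.13 ± 0.19 in DKO-3. Its 6 probe sets ranged over -0.20 to 0.58 in DKS-5 and -0.52 to 0.20 in DKO-3, with none past the threshold.

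TGFBR1, the type I receptor kinase, had signals of 556 and 945 in DKS-5 hypoxia, against 586 and 677 in DKS-5 normoxia. DKO-3 had 463 and 678 in hypoxia, against 616 and 449 in normoxia. The groups overlapped in both lines, and the differences were 0.20 ± 0.28 in DKS-5 and 0.09 ± 0.28 in DKO-3. On 206943_at DKO-3 hypoxia (113 and 149) lay above DKO-3 normoxia (81.2 and 103), a difference of 0.44 that did not pass (limma over probe sets, adjusted p = 0.756). On 236561_at the groups overlapped in both lines.

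TGFBR2, the type II receptor kinase that binds TGF-beta, had signals of 1568 and 1810.2 in DKS-5 hypoxia, against 1664 and 1914 in DKS-5 normoxia. On the DKO-3 arrays it stood at 934 and 1046 in hypoxia, against 1103 and 998 in normoxia. Hypoxia and normoxia overlapped in each line. The hypoxia difference was -0.08 ± 0.19 in DKS-5 and -0.09 ± 0.19 in DKO-3, with 95% intervals of -0.48 to 0.31 and -0.48 to 0.31. The second TGFBR2 probe set, 207334_s_at, had 128 and 104 in DKO-3 hypoxia, against 32.6 and 83.9 in DKO-3 normoxia. That difference, 0.91, did not pass (limma over probe sets, adjusted p = 0.475).

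**Figure D2:**
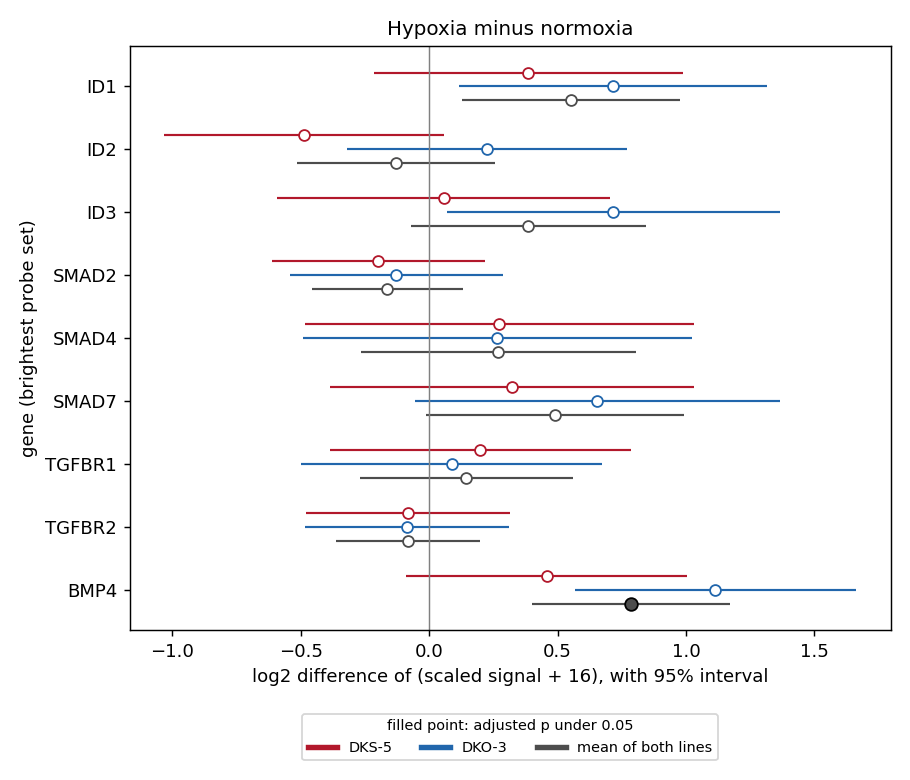
Hypoxia minus normoxia for the 9 genes as log2 differences (horizontal axis) with 95% intervals, in DKS-5, in DKO-3 and as the mean of both lines; filled points passed an adjusted p of 0.05. BMP4 over both lines, at 0.79, is the filled point.

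Counted together, 0 of the 9 genes passed in DKS-5, where 0.503% of all genes did, and 0 of 9 in DKO-3, where 0.346% did. At an unadjusted p under 0.05, 0 of the 9 stood out in DKS-5, against 6.93% of all genes, and ID1, ID3 and BMP4 did in DKO-3, all higher in hypoxia. Among all genes 7.84% were higher in DKO-3 hypoxia by that rule. That share counts 1 direction alone, while the 6.93% for DKS-5 counts both. The arrays did not overlap for 2 of the 9 in DKS-5 (BMP4 higher and ID2 lower), against 35.5% of all genes. They did not overlap for 4 of the 9 in DKO-3 (ID1, ID3 and BMP4 higher and SMAD2 lower), against 42.1% of all genes. The median difference of the 9 was 0.20 in DKS-5 and 0.27 in DKO-3, beside 0.02 and 0.04 over all genes. For the difference between the responses, 0 of the 9 passed in limma, and 0 did at an unadjusted p under 0.05. Of all genes 0% passed and 2.61% had an unadjusted p under 0.05.

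The lines were then compared. TGFBR2 was higher in DKS-5 at both oxygen levels, by 1.69-fold as their mean, and ID2 was lower in DKS-5. These were the 2 called genes of the 9. ID1 and BMP4 stood lower in DKS-5 in hypoxia without passing.

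The TGFBR2 signals given above averaged 1689 ± 171 in DKS-5 hypoxia, against 989.7 ± 79.3 in DKO-3 hypoxia, and 1789 ± 177 in DKS-5 normoxia, against 1051 ± 74.3 in DKO-3 normoxia (SD, n = 2 each). All 4 DKS-5 arrays were above all 4 DKO-3 arrays, with the lowest DKS-5 array well clear of the highest DKO-3 array. Within each line the order of hypoxia and normoxia was not settled. The difference was 0.76 ± 0.13 over both oxygen levels (limma, adjusted p = 0.00157, 95% interval 0.48 to 1.04). It was 0.76 ± 0.19 in hypoxia (adjusted p = 0.0322) and 0.76 ± 0.19 in normoxia (adjusted p = 0.0429). The call over both oxygen levels was kept in all 18 alternatives, at 0.49 to 0.81, with adjusted p between 0.000782 and 0.0497. The lowest value was the mean of its 2 probe sets.

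The probe sets of TGFBR2 did not agree in hypoxia. On 207334_s_at the signals were 96.8 and 90.9 in DKS-5 hypoxia, against 128 and 104 in DKO-3 hypoxia, a difference of -0.26. In normoxia they were 84.8 and 109.9 in DKS-5, against 32.6 and 83.9 in DKO-3, a difference of 0.69. With the mean of the 2 probe sets the hypoxia difference was 0.25 and did not pass (adjusted p = 0.514).

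The calls at single oxygen levels were less stable. In normoxia the TGFBR2 call was lost without either DKS-5 normoxia array (adjusted p = 0.184 without replicate 1 and 0.478 without replicate 2), either DKO-3 normoxia array (0.150 and 0.264) or either DKO-3 hypoxia array (0.0591 and 0.0596). In hypoxia it was lost without DKS-5 hypoxia replicate 2 (0.0893), either DKO-3 hypoxia array (0.260 and 0.0786) or either DKS-5 normoxia array (0.0650 and 0.0666).

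ID2 averaged 279 ± 7.34 in DKS-5 hypoxia, against 581 ± 162 in DKO-3 hypoxia, and 397 ± 4.93 in DKS-5 normoxia, against 495 ± 140.2 in DKO-3 normoxia (SD, n = 2 each). The groups did not overlap in hypoxia and did in normoxia. The difference was -0.99 ± 0.26 in hypoxia, a ratio of 0.503 (limma, adjusted p = 0.0400), and -0.28 ± 0.26 in normoxia (adjusted p = 0.820). Over both it was -0.64 ± 0.18 (adjusted p = 0.0383). The second probe set had 304 and 359.7 in DKS-5 hypoxia, against 441 and 442 in DKO-3 hypoxia, without overlap, and 323 and 425 in DKS-5 normoxia, against 528 and 422 in DKO-3 normoxia. Its difference had the same sign over both oxygen levels, -0.37, and did not pass (limma over probe sets, adjusted p = 0.244).

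With the ACTB ratio in the model the ID2 difference was -0.62 in hypoxia (limma, adjusted p = 0.503) and -0.38 over both oxygen levels (adjusted p = 0.507). The ratio was lowest in DKO-3 hypoxia, so its part and that of the group cannot be told apart. TGFBR2 over both oxygen levels stood at 0.79 in the same model (adjusted p = 0.0497). Among single arrays, DKO-3 hypoxia replicate 1 had the highest ID2 signal, and without it the hypoxia difference was -0.71 (adjusted p = 0.419). That call was also lost without any 1 DKS-5 array, with adjusted p of 0.0703 and 0.0767 without hypoxia replicates 1 and 2, and 0.0685 and 0.0685 without normoxia replicates 1 and 2. The call over both oxygen levels was lost without DKS-5 hypoxia replicate 1 (0.0501), either DKS-5 normoxia array (0.122 and 0.126), DKO-3 hypoxia replicate 1 (0.204) or DKO-3 normoxia replicate 2 (0.176).

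ID1 averaged 35.4 ± 1.79 in DKS-5 hypoxia, against 60.5 ± 6.73 in DKO-3 hypoxia (SD, n = 2 each), and those arrays did not overlap. The difference in hypoxia was -0.57 ± 0.28 (limma's adjusted p = 0.300), and in normoxia -0.24 ± 0.28. ID3 differed by 0.49 ± 0.30 in normoxia and -0.17 ± 0.30 in hypoxia, and its groups overlapped at both oxygen levels. BMP4 differed by -0.50 ± 0.26 in hypoxia without overlap (adjusted p = 0.320) and by 0.16 ± 0.26 in normoxia. In hypoxia the fitted differences of all 3 ID genes were below 0, and that of ID2 passed. In normoxia ID1 and ID2 were below 0 and ID3 above it, with none past the threshold.

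Among the SMADs, the brightest probe sets did not separate the lines. SMAD2 differed by 0.05 ± 0.14 over both oxygen levels, SMAD4 by 0.16 ± 0.25 and SMAD7 by -0.13 ± 0.24, and TGFBR1 by 0.31 ± 0.19. For SMAD4 this too turned on 1 array: without DKS-5 hypoxia replicate 1 it stood at 0.55 (limma's adjusted p = 0.0382). All 6 SMAD2 probe sets were on the positive side in hypoxia and over both oxygen levels. Of these, 226563_at had 586 and 648 in DKS-5 hypoxia, against 344 and 374 in DKO-3 hypoxia, without overlap. That difference, 0.75, had an adjusted p of 0.0926 in limma over probe sets.

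**Figure D3:**
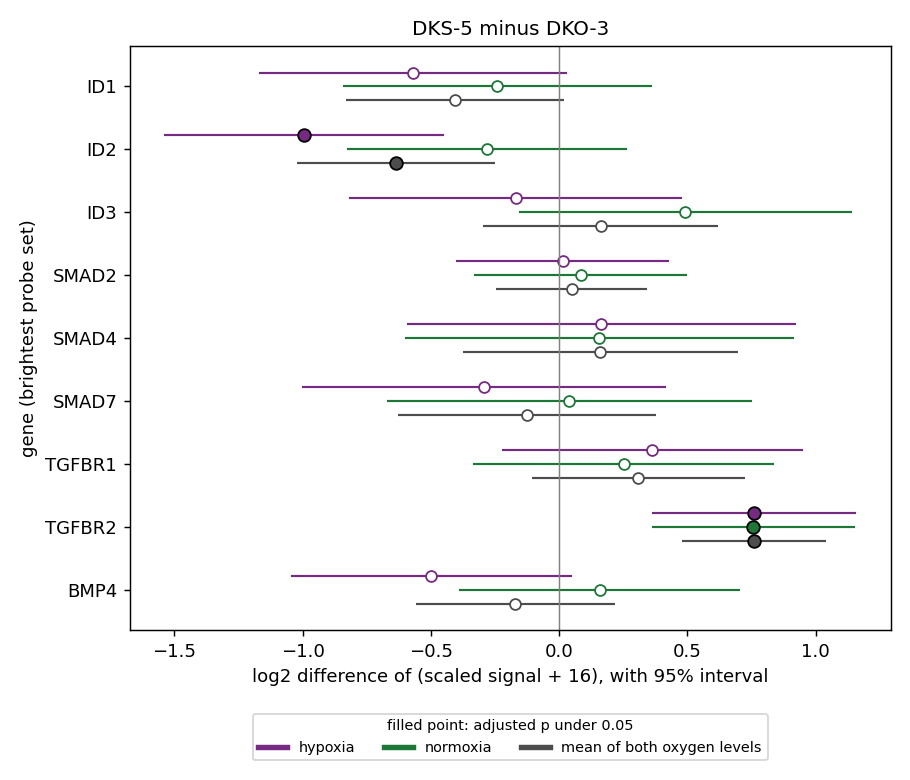
DKS-5 minus DKO-3 for the 9 genes as log2 differences (horizontal axis) with 95% intervals, in hypoxia, in normoxia and as the mean of both oxygen levels; filled points passed an adjusted p of 0.05. TGFBR2 lies near 0.76 in all 3, and ID2 is filled in hypoxia and in the mean.

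In normoxia 1 of the 9 genes passed (TGFBR2 higher), where 2.54% of all genes did. In hypoxia 2 of 9 passed (TGFBR2 higher and ID2 lower), where 4.37% of all genes did. Over both oxygen levels the same 2 of 9 passed, where 9.11% of all genes did. The arrays did not overlap for 1 of the 9 in normoxia, against 43.7% of all genes, and for 4 of the 9 in hypoxia, against 44.9%. Over both oxygen levels they did not overlap for 1 of the 9, TGFBR2, against 13.9% of all genes. The median line difference of the 9 was 0.05 over both oxygen levels, beside -0.01 over all genes.

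Colon epithelium markers differed between the lines beside these genes. Of the 8 tested, 3 passed over both oxygen levels, where 9.11% of all genes did. KRT20, a keratin of differentiated intestinal cells, had 10.3 and 6.20 in DKS-5 hypoxia, against 407 and 301 in DKO-3 hypoxia, and 7.18 and 15.5 in DKS-5 normoxia, against 445 and 444 in DKO-3 normoxia (limma, adjusted p = 4.34e-09). Both DKS-5 hypoxia arrays and a DKS-5 normoxia array of KRT20 were below the floor of 13.8. The gene was thus tested through its DKO-3 signal, and its change has a lower bound only. Its p-value is therefore not read as support, and the 3 of 8, which include KRT20, not as a result about the markers. VIL1, an actin-bundling protein of microvilli, was higher in DKS-5 by 1.65 ± 0.18 (adjusted p = 2.31e-05). KRT19, another epithelial keratin, was lower in DKS-5, with a difference of -0.96 ± 0.17 (adjusted p = 0.00193). KRT19 also rose in hypoxia over both lines 2.30-fold (adjusted p = 0.00119). That was the single hypoxia call of the 8 in that comparison, where 1.19% of all genes passed. The part of these markers in the calls of TGFBR2, ID2 and BMP4 was not tested.

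Taken by probe set, in a limma fit over 32768 probe sets, TGFBR2 208944_at was the single called probe set of the 22. It passed in hypoxia (adjusted p = 0.0495), where 2.08% of probe sets did, and over both oxygen levels (0.00280), where 5.71% did. In the same fit BMP4 over both lines (0.0818), ID2 201565_s_at over both oxygen levels (0.0558) and in hypoxia (0.0625), and TGFBR2 208944_at in normoxia (0.0726) did not pass.

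**Figure D4:**
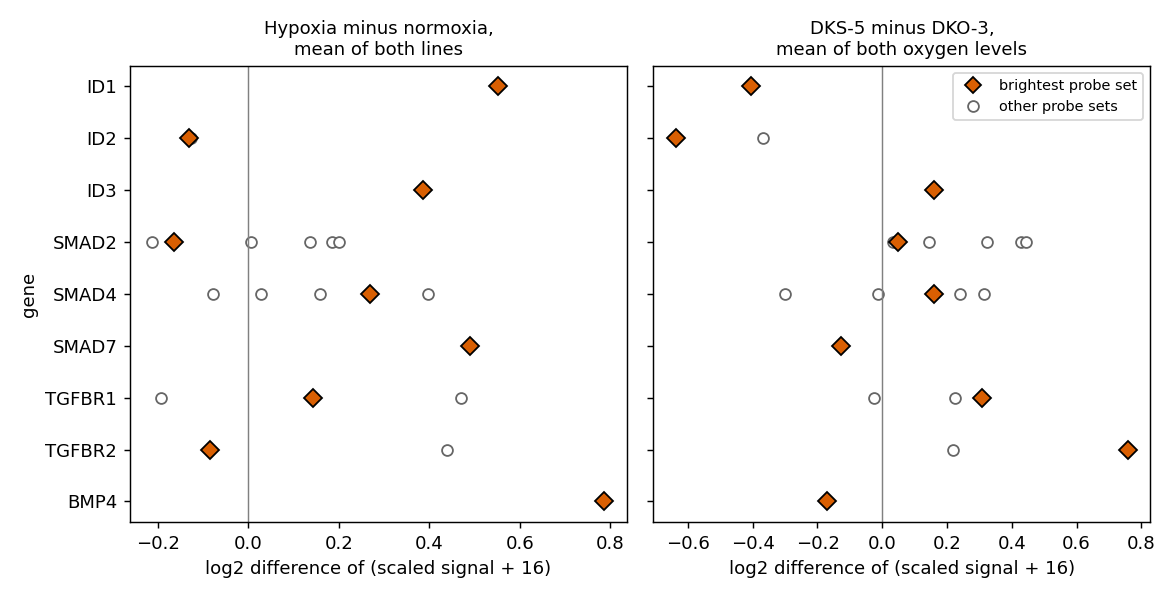
Log2 differences (horizontal axes) of every probe set of the 9 genes, hypoxia minus normoxia as the mean of both lines (left) and DKS-5 minus DKO-3 as the mean of both oxygen levels (right); diamonds are the brightest probe set and open circles the others. The TGFBR2 diamond in the right panel, at 0.76, stands to the right of its other probe set, at 0.22.

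As a description of the ID genes, the genes whose log2 values over the 8 arrays followed them most closely were listed. They were GGTLC1, CAMP and LAMTOR4 for ID1 (Pearson's r of 0.974, 0.967 and 0.958), TMT1B, ANXA2R-AS1 and GGACT for ID2 (0.973, 0.971 and 0.960), and KIAA0586, SGSM3 and EXOC2 for ID3 (0.973, 0.936 and 0.931). The lists shared no gene. Between the ID genes r was 0.36 for ID1 and ID2, 0.33 for ID1 and ID3, and -0.34 for ID2 and ID3. All are maxima or values over 8 arrays of 4 groups that share line, oxygen level and RNA quality.

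The rest of the pathway was read through lists of named genes. Of 12 genes for TGF-beta ligands and their activation, 9 were tested and 0 passed for hypoxia in either line or over both. Of all genes 0.503% passed in DKS-5, 0.346% in DKO-3 and 1.19% over both. LTBP1, which tethers latent TGF-beta to the matrix, had 1236 and 1041 in DKS-5 hypoxia, against 620.5 and 616 in DKO-3 hypoxia. In normoxia it had 1096 and 1173 in DKS-5, against 925 and 583 in DKO-3. Every DKS-5 array was above every DKO-3 array, and the difference over both oxygen levels was 0.74 ± 0.16 (limma, adjusted p = 0.00831). On its second probe set, 202728_s_at, the lines overlapped. The LTBP1 call was lost with the ACTB ratio in the model (0.39, adjusted p = 0.394) and with no array scaling (0.51, 0.0720). LTBP1 was the single call of the 9 between the lines over both oxygen levels, where 9.11% of all genes passed. In all, 8 of the 9 stood on the positive side between the lines, with a median of 0.27 beside -0.01 for all genes.

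Of 17 BMP, activin and GDF ligands besides BMP4, 7 were tested. BMP2, the ligand closest to BMP4 in sequence and receptor use, had 44.6 and 73.4 in DKS-5 hypoxia, against 175 and 210.3 in DKO-3 hypoxia. In normoxia it had 21.2 and 24.3 in DKS-5, against 104 and 108 in DKO-3. Every DKS-5 array was below every DKO-3 array, and the ratio over both oxygen levels was 0.335 (-1.58 ± 0.18, limma, adjusted p = 4.17e-05). Its second probe set, 205290_s_at, kept the same order, with 31.0 and 23.5 in DKS-5 hypoxia, against 153 and 122 in DKO-3 hypoxia. The call was kept in all 18 alternatives, at -1.95 to -1.02. BMP2 also rose in hypoxia over both lines, by 0.85 ± 0.18 (adjusted p = 0.0313), a call lost without any 1 array other than DKS-5 hypoxia replicate 1, at adjusted p of up to 0.163, and also with no array scaling, quantile normalization, no filter or the ACTB ratio, at up to 0.264.

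INHBB, which encodes an activin and inhibin subunit, was also lower in DKS-5. It had 56.3 and 70.6 in DKS-5 hypoxia, against 236 and 157 in DKO-3 hypoxia, and 80.4 and 60.3 in DKS-5 normoxia, against 127 and 193 in DKO-3 normoxia. The lines did not overlap, and the difference was -1.21 ± 0.20 over both oxygen levels (limma, adjusted p = 0.00104). With the ACTB ratio in the model it was -0.96 and did not pass (adjusted p = 0.0858). GDF15, a stress-induced cytokine of this family, had 595 and 542 in DKS-5 hypoxia, against 212 and 339 in DKS-5 normoxia, and 476 and 346 in DKO-3 hypoxia, against 181 and 213 in DKO-3 normoxia. It was higher in every hypoxia array, by 1.01 ± 0.19 over both lines (adjusted p = 0.00995). That call was lost without DKS-5 normoxia replicate 1, DKO-3 hypoxia replicate 1 or DKO-3 normoxia replicate 1, at adjusted p of up to 0.0955. It was also lost with no filter (0.0571), with the mean of all probe sets, at 0.58 (0.149), and with the ACTB ratio in the model (0.125). Over the list, 2 of 7 passed for hypoxia over both lines (BMP2 and GDF15, both higher), where 1.19% of all genes did. Between the lines over both oxygen levels 2 of 7 passed (BMP2 and INHBB, both lower in DKS-5), where 9.11% of all genes did. The list medians were 0.07 and -0.22, beside 0.03 and -0.01 for all genes.

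Of 12 other receptors and co-receptors, 10 were tested, and ACVR2B, a type II receptor for activins, was the single call. It had 184 and 289 in DKS-5 hypoxia, against 87.0 and 109.7 in DKO-3 hypoxia, and 165 and 206 in DKS-5 normoxia, against 97.2 and 95.1 in DKO-3 normoxia. All DKS-5 arrays were above all DKO-3 arrays, with a difference of 0.98 ± 0.19 over both oxygen levels (limma, adjusted p = 0.00344). Its other tested probe set, 220028_at, overlapped between the lines, and with the mean of all probe sets the difference was 0.37 and did not pass (adjusted p = 0.0985). Between the lines over both oxygen levels 1 of the 10 passed, where 9.11% of all genes did. For hypoxia 0 of the 10 passed in either line or over both, where 1.19% of all genes did over both. Their median over both lines was -0.07.

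All 6 of the other SMADs and adaptors were tested. SMAD3, the second SMAD of the TGF-beta arm, had 901 and 909 in DKS-5 hypoxia, against 1046 and 1205 in DKO-3 hypoxia, and 834 and 858 in DKS-5 normoxia, against 1406 and 1330.4 in DKO-3 normoxia. It was lower in DKS-5 on every array, by -0.49 ± 0.13 over both oxygen levels (limma, adjusted p = 0.0277). That call was lost without any 1 array of either normoxia group or of DKO-3 hypoxia, at adjusted p of up to 0.135, with the ACTB ratio in the model (0.211) and with no variance trend (0.0536). A further SMAD3 probe set, 205398_s_at, had 214 and 227 in DKS-5 hypoxia, against 359 and 376 in DKO-3 hypoxia, and 178 and 189 in DKS-5 normoxia, against 244 and 312 in DKO-3 normoxia, the same order of lines. Between the lines over both oxygen levels SMAD3 was the single call of the 6, where 9.11% of all genes passed. For hypoxia 0 of the 6 passed, where 1.19% of all genes did over both lines. SMAD9, a BMP SMAD, had the smallest p over both lines, at 0.53 ± 0.20 (adjusted p = 0.251).

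Of 21 pathway inhibitors, corepressors and their regulators, 13 were tested and 0 passed in any of the 7 comparisons. At an unadjusted p under 0.05 there were 2 of the 13 for hypoxia over both lines, against 14.3% of all genes, and 3 of the 13 between the lines over both oxygen levels, against 22.5% of all genes. NEDD4L, a ubiquitin ligase that acts on SMADs, differed by 0.49 ± 0.15 for hypoxia over both lines (limma's adjusted p = 0.162). RNF111, a ubiquitin ligase that removes SMAD7 and so is not itself an inhibitor, differed by -0.48 ± 0.16 between the lines (limma's adjusted p = 0.0722).

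Of 14 TGF-beta target genes, 9 were tested, and the members that passed for hypoxia were CDKN1A and ANGPTL4. Both are also known to be induced by hypoxia. CDKN1A, which encodes the p21 inhibitor of the cell cycle, had 738 and 968 in DKS-5 hypoxia, against 368 and 379 in DKS-5 normoxia, and 846 and 946 in DKO-3 hypoxia, against 696 and 595 in DKO-3 normoxia. The hypoxia arrays lay above the normoxia arrays in both lines, by 1.15 ± 0.22 in DKS-5 (limma, adjusted p = 0.0220) and 0.47 ± 0.22 in DKO-3 (adjusted p = 0.470). The DKS-5 call was lost without DKS-5 hypoxia replicate 2 or either DKS-5 normoxia array, at adjusted p of up to 0.353, and with no array scaling, no filter, no variance trend or only the arrays compared, at up to 0.246. ANGPTL4, a secreted inhibitor of lipoprotein lipase, had 81.6 and 101 in DKS-5 hypoxia, against 2.65 and 8.36 in DKS-5 normoxia, and 40.7 and 33.6 in DKO-3 hypoxia, against 1.52 and 2.28 in DKO-3 normoxia. All 4 normoxia arrays were below the floor, so that the gene was tested through its hypoxia signal alone and its change has a lower bound only. Against the floor, and on signals without a pseudocount, ANGPTL4 was at least 6.59-fold higher in DKS-5 hypoxia and at least 2.68-fold in DKO-3 hypoxia. These bounds were not tested. The limma calls belong to fitted log2 differences of 2.33 in DKS-5 (adjusted p = 0.000128) and 1.57 in DKO-3 (adjusted p = 0.00949). Those differences rest on normoxia signals below the floor, so their p-values are not read as support. The DKO-3 call was lost without any 1 of the 4 DKO-3 arrays, at adjusted p of up to 0.206, and with no filter, the mean of all probe sets or the ACTB ratio, at up to 0.218.

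TIMP3, an inhibitor of matrix metalloproteinases on the same list, had 135 and 118 in DKS-5 hypoxia, against 635 and 362 in DKO-3 hypoxia. In normoxia it had 177 and 156 in DKS-5, against 552 and 396 in DKO-3. The DKS-5 arrays were all below the DKO-3 arrays, and the same held on its 3 other tested probe sets. The ratio over both oxygen levels was 0.329 (-1.60 ± 0.20, limma, adjusted p = 7.11e-05), and this call was kept in all 18 alternatives. Over the list, 2 of 9 passed for hypoxia in DKS-5, where 0.503% of all genes did, and 1 of 9 in DKO-3, where 0.346% did, all higher. ANGPTL4, tested through its hypoxia signal alone, was 1 of the 2 in DKS-5 and the 1 in DKO-3. These counts are therefore not read as a result about the list. Between the lines over both oxygen levels 1 of 9 passed lower in DKS-5 (TIMP3) and 1 of 9 higher (ANGPTL4), where 9.11% of all genes passed. The ANGPTL4 line call (adjusted p = 0.0337) rested on the hypoxia arrays, since both lines were below the floor in normoxia, and was lost in 11 of 17 alternatives, at adjusted p of up to 0.166.

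Of 10 BMP target genes other than the ID genes, 9 were tested and 0 passed for hypoxia, where 1.19% of all genes did over both lines. The median over both lines was -0.06, beside 0.03 for all genes. GATA3, a transcription factor, was dim, with 15.8 and 7.56 in DKS-5 hypoxia, against 34.7 and 26.0 in DKO-3 hypoxia, and 17.4 and 14.1 in DKS-5 normoxia, against 29.2 and 46.8 in DKO-3 normoxia. A DKS-5 hypoxia array was below the floor, and the other DKS-5 arrays were little above it. GATA3 passed between the lines over both oxygen levels, lower in DKS-5 (limma, adjusted p = 0.0192), with a difference of -1.28 to -0.33 over the alternatives. It was the single call of the 9 in that comparison, where 9.11% of all genes passed. The call was lost without DKS-5 hypoxia replicate 2, DKS-5 normoxia replicate 2, DKO-3 hypoxia replicate 1 or DKO-3 normoxia replicate 2, at adjusted p of up to 0.0945, with no filter (0.0579) and with the ACTB ratio in the model (0.233). SMAD6, an inhibitory SMAD induced by BMPs, had 47.5 and 46.7 in DKS-5 hypoxia, against 31.5 and 41.6 in DKS-5 normoxia, and 45.3 and 47.4 in DKO-3 hypoxia, against 22.4 and 40.9 in DKO-3 normoxia. Its difference over both lines was 0.34 ± 0.18 and did not pass (adjusted p = 0.414).

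Of 8 partners of the ID proteins and related bHLH factors, 7 were tested. ASCL2, a bHLH factor of intestinal stem cells, had 1268 and 1343 in DKS-5 hypoxia, against 777 and 803 in DKS-5 normoxia. For DKO-3 the signals were 941 and 999 in hypoxia, against 538 and 613 in normoxia. Hypoxia was higher in both lines without overlap, by 0.73 ± 0.14 over both (limma, adjusted p = 0.0116), the single call of the 7, where 1.19% of all genes passed. The call was lost without either DKS-5 normoxia array, either DKO-3 hypoxia array or DKO-3 normoxia replicate 1, at adjusted p of up to 0.0989. It was also lost with the mean of all probe sets, at 0.36 (adjusted p = 0.176), and with the ACTB ratio in the model (adjusted p = 0.153). ID4, the remaining ID gene, was dim, with 28.1 and 14.9 in DKS-5 hypoxia, against 23.2 and 14.1 in DKS-5 normoxia, and 10.1 and 13.1 in DKO-3 hypoxia, against 14.3 and 19.7 in DKO-3 normoxia. Its difference over both lines was -0.07 ± 0.19 and did not pass (adjusted p = 0.896).

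**Figure D5:**
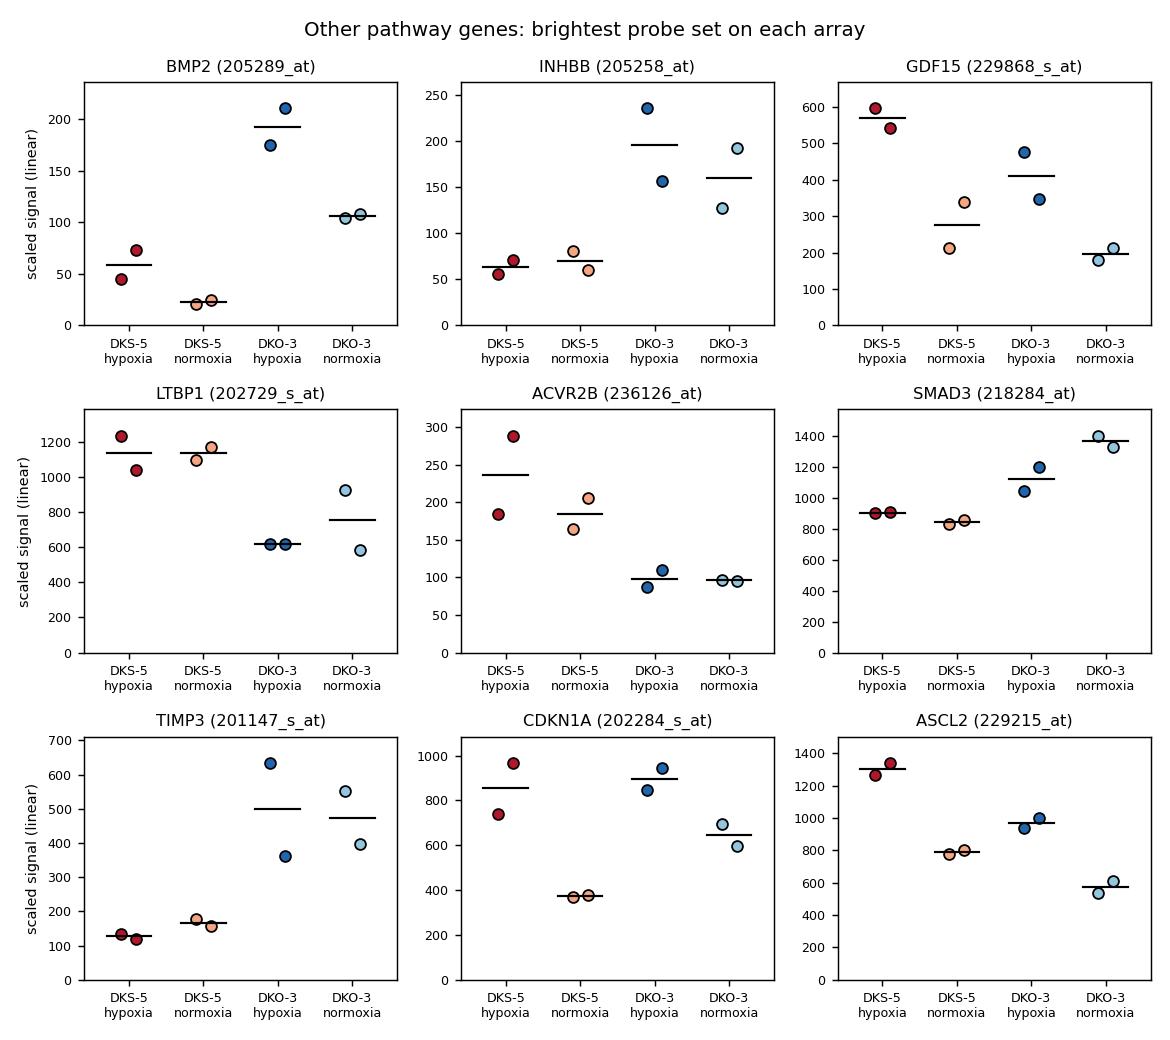
Scaled signal (linear axis) of 9 other pathway genes on every array; points are arrays, lines are means of 2. BMP2, INHBB and TIMP3 are low in both DKS-5 groups, and GDF15 and ASCL2 are higher in hypoxia than in normoxia in each line.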

How the data were processed

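Each array was deposited as linear probe set intensities, which per the submitters' processing notes the authors made with MAS5. The sources used here do not give its version or target intensity, and detection calls were not used. Per the labels' protocols, total RNA was amplified to cDNA with a NuGEN Ovation kit and labelled with biotin. Trimmed means (2% at each end, 62 control probe sets left out) differed 1.52-fold between arrays, above the 10% tolerance, so each array was scaled to 172.1. Values were taken as log2(signal + 16), which understates the change of dim genes. Of 54675 probe sets, 41091 carried exactly 1 gene symbol in the platform annotation, for 19775 genes. Each gene was represented by its brightest probe set, and those above the 40th percentile (12735 genes) were tested.

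One limma model (3.58.1, R 4.3.3) with the 4 groups as terms gave 7 comparisons, with intensity-trended variances (4 residual and 11.3 prior degrees of freedom). Benjamini-Hochberg adjustment ran over all genes tested, and the threshold was 0.05. A second fit ran over 32768 probe sets. Array number limits the precision. Replicates correlated at r of 0.976 in DKS-5 hypoxia, 0.989 in DKS-5 normoxia, 0.983 in DKO-3 hypoxia and 0.983 in DKO-3 normoxia.

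The member genes, pathway lists and tests were chosen with earlier results of these data known. The text names all members, and from each list the genes that passed in any comparison, or the 1 with the smallest p, plus ID4 and SMAD6 for their kinship with members, added after their values were seen. Promoters came from RefSeq (GRCh38.p14). The gene that the genotype labels name is not reported here. Alternatives covered scaling, pseudocount, filter, probe set rule, replicate block, ACTB ratio, variance trend, arrays fitted and each array left out.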

Additional observations from a re-analysis of the deposited data

How the results depend on the processing

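Of 1163 values of the member genes under alternatives, 1103 kept their side of the threshold, 51 lost a call, 9 gained 1, and 0 calls reversed. The line difference of TGFBR2 over both oxygen levels kept its call throughout. For hypoxia against normoxia in DKS-5 the count of members past the threshold was 0 in every alternative but leaving arrays out, where it ranged from 0 to 1. In DKO-3 the 0 became 1 (BMP4) with no array scaling (1.31, adjusted p = 0.0289) and with a fit of only the arrays compared (adjusted p = 0.0377). Over both lines the 1 became 0 with no array scaling, a pseudocount of 1, no filter, the mean of all probe sets, the ACTB ratio or no trend, and leaving out single arrays gave 0 to 2. Between the lines in normoxia the 1 became 0 with no array scaling, no filter, the mean of all probe sets, the ACTB ratio or no trend, and leaving out arrays gave 0 to 1. In hypoxia the 2 became 1 with quantile normalization or the mean of all probe sets, and 0 with no filter, the ACTB ratio, no trend or only the arrays compared. With no array scaling it became 3 (ID1, ID2 and BMP4, lower in DKS-5), and leaving out arrays gave 0 to 2. Over both oxygen levels the 2 became 1 with quantile normalization, no filter or the ACTB ratio, and leaving out arrays gave 1 to 2. The difference between the responses stayed at 0. The cause of the changed counts was not tested. With no array scaling the median of all genes moved to -0.42 between the lines in hypoxia, 0.20 for hypoxia in DKO-3 and -0.19 for hypoxia in DKS-5, so values under that setting are relative to those shifts.

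Replicate numbers do not pair the samples: replicate differences correlated between groups at r of -0.09 to 0.33. With the replicate number as a block, BMP4 passed for hypoxia in DKO-3 (1.11, adjusted p = 0.0237), so that count became 1, and the other counts of members were as without the block.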
